A study of Mus musculus with 8 samples.

Results

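The enzymes and transporters that carry glucose to pyruvate and lactate, and pyruvate through the citric acid cycle, were examined as 44 named genes in the mouse heart. The 44 were taken by gene name, from Slc2a1 at the cell surface to Mdh2 in the mitochondrion. They were covered by 76 probes of the array, and each gene was read from its brightest tested probe. All 44 were tested, of 15690 features tested in all. Pkm is listed in the files under its older name Pkm2.

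The hearts came from male mice aged 12 weeks, 4 overexpressing PKR2 and 4 wild-type (WT), and each heart was hybridised to its own 1-colour array. The name PKR2 was taken to mean prokineticin receptor 2, through which the secreted prokineticins signal by way of G proteins. The labels give neither the strain, the promoter or cell type that drives the transgene, nor whether the mice were littermates. No array had a Prokr2 signal well above background, and since the transgene need not carry the probed stretch, it does not check the genotype labels. Nothing beyond the sample titles says that the hearts came from separate breeding or handling, so p-values measure the spread between these samples.

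Glucose enters muscle cells through facilitative transporters, is trapped by hexokinase and is split by glycolysis into pyruvate, which is either reduced to lactate or oxidised by the pyruvate dehydrogenase complex. The acetyl units then pass through the citric acid cycle, whose enzymes deliver electrons to the respiratory chain. The adult heart draws most of its energy from fatty acids, with glucose and lactate as the other main fuels, and several steps have a muscle-enriched and a widely expressed form encoded by different genes.

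None of the 44 genes passed a limma adjusted p of 0.05 between PKR2 and WT hearts (the rule for a call), which 0% of all features passed. None reached an unadjusted limma p under 0.05 either, against 2.40% of all features, and none had groups that did not overlap, against 1.57% of all features. Levels are given as log2 signal with the 75th percentile of the array set to 0, and differences are PKR2 minus WT with n = 4 arrays a group. The differences ran from -0.35 for Pfkfb1, which makes and removes the phosphofructokinase activator fructose 2,6-bisphosphate, to 0.31 for Ogdh, a subunit of 2-oxoglutarate dehydrogenase. The 95% confidence interval lay within 1 log2 unit to either side of 0 for all 44 genes and within 0.5 for 19 of them. Its median half-width was 0.43 for the 44 genes and 0.48 for all features.

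The median difference of the 44 genes was -0.031, beside -0.0078 for all features, and 20 of the 44 were higher in PKR2 hearts (45.5%, beside 48.1% of all features). By step, the median difference was -0.047 for the 4 genes of glucose entry and 0.013 for the 8 of upper glycolysis. It was -0.065 for the 9 genes of lower glycolysis and lactate, 0.0055 for the 6 of the pyruvate dehydrogenase step and -0.037 for the 17 of the citric acid cycle. The split of signs depends on how the arrays were scaled and background-corrected: 11 of 44 were higher with median scaling, 26 with quantile normalization, 20 in the authors' deposited values, 42 with normexp background correction and 38 with normexp after the arrays were brought to a common level. No direction is therefore read for the 44 genes together, and none of these settings made a call among them.

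**Figure D1:**
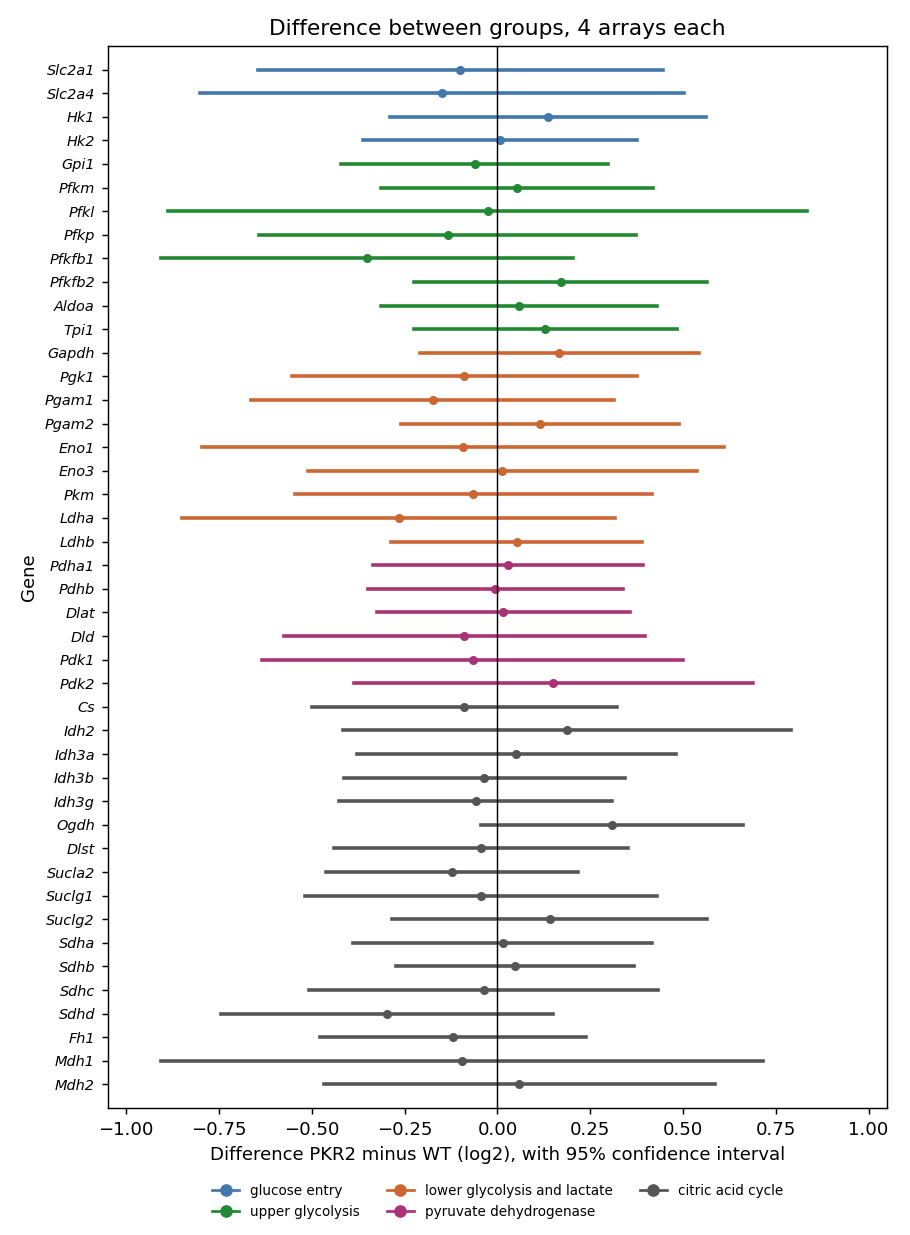
Difference between PKR2 and WT hearts for each of the 44 genes (horizontal axis, log2, PKR2 minus WT), with points for the limma estimate and lines for its 95% confidence interval, coloured by step. Every interval includes 0, and the estimates run from -0.35 (Pfkfb1) to 0.31 (Ogdh).

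Of the 6 slides used, slide 5 (WT 3 and PKR2 3) and slide 6 (WT 4 and PKR2 4) carried both groups, and the other 4 carried 1 array each. WT 2, WT 4 and PKR2 4 were scanned over a single range and the other arrays over an extended range, per the file headers, and the 75th percentile of signal ran from 38.1 to 736. All 10 cardiomyocyte markers tested (such as Myh6, Actc1 and Tnnt2) were well above background on all 8 arrays, with differences from -0.045 to 0.25. Of these 10, 9 had a higher mean in PKR2 hearts (90%, beside 48.1% of all features), and 0 had an unadjusted limma p under 0.05. All 8 tested adipocyte markers of 10 listed had a lower mean in PKR2 hearts, with 0 called, and none was at background on any array. Of these 8, 6 had an unadjusted limma p under 0.05, beside 2.40% of all features. Their mean score per array ran from -0.10 to 1.30 in WT and was -2.21 and -2.01 on PKR2 1 and PKR2 2, beside 0.43 and 0.31 on PKR2 3 and PKR2 4. Adipoq, the adipokine adiponectin, was -0.28 and -0.54 on PKR2 1 and PKR2 2 and between 2.34 and 4.33 on the other 6 arrays. Marker lists of endothelial cells, fibroblasts, macrophages, erythroid cells and skeletal muscle had median differences from -0.095 to 0.042, with no member called. The erythroid score ran from -0.32 to 0.35 in WT and was -0.30, 1.41, -1.14 and 0.14 on the PKR2 arrays, so that PKR2 2 was the highest and PKR2 3 the lowest of the 8 arrays. In these bulk samples, fewer cells of a type and less RNA per cell cannot be told apart.

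Slc2a4 encodes GLUT4, the insulin-responsive glucose transporter of muscle and fat, and Slc2a1 encodes GLUT1, the widely expressed one. Slc2a4 was 6.77, 7.68, 7.61 and 7.03 in WT hearts and 6.75, 7.84, 7.04 and 6.87 in PKR2 hearts, and the group means differed by -0.15 (SE 0.29, limma adjusted p = 1.0). Slc2a1 was 2.05, 2.59, 2.93 and 1.98 in WT and 2.05, 2.62, 2.39 and 2.09 in PKR2 hearts, and the group means differed by -0.10 (SE 0.24). For both transporters the second array of each group lay well above the first array of that group, and the groups overlapped.

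The hexokinases phosphorylate glucose and so keep it in the cell. Hk2, the insulin-regulated form of muscle, was 6.39, 6.67, 6.85 and 6.48 in WT and 6.37, 6.73, 6.76 and 6.56 in PKR2 hearts, and the group means differed by 0.0075 (SE 0.16). Hk1, the widely expressed form, was 5.06, 5.66, 5.63 and 5.63 in WT and 5.44, 5.92, 5.66 and 5.50 in PKR2 hearts, and the group means differed by 0.14 (SE 0.19). WT 1 was the low array for this Hk1 probe, and without WT 1 the Hk1 difference was -0.0077. The other tested Hk1 probes differed by 0.30, 0.33 and 0.12, and on each of them WT 1 was the highest WT array.

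**Figure D2:**
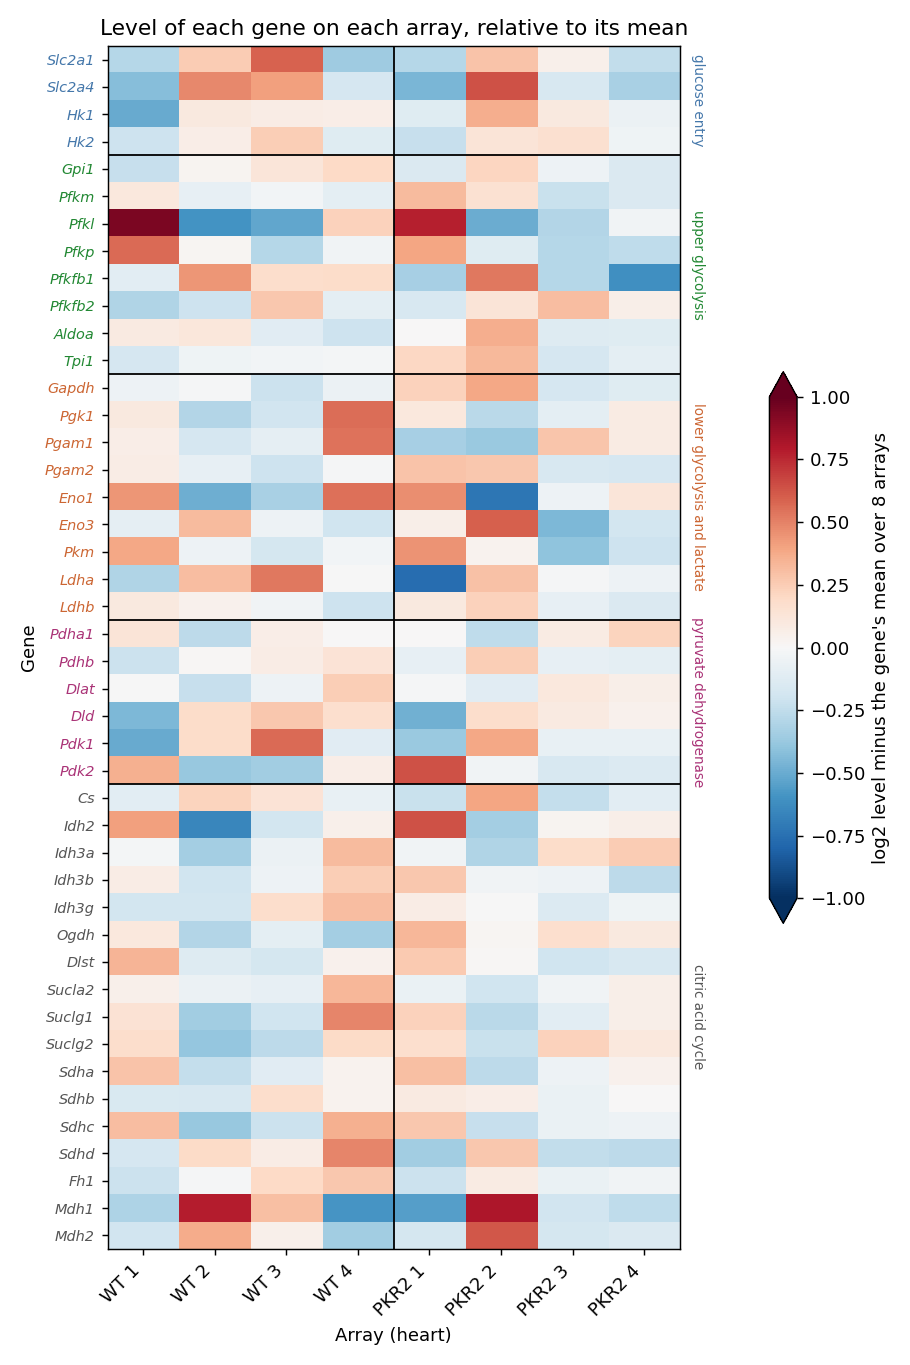
Level of each of the 44 genes (rows, grouped by step) on each of the 8 arrays (columns), as the log2 level after subtraction of the gene's own 8-array mean. WT arrays are left of the vertical line and PKR2 arrays right of it; PKR2 2 had the highest value of 13 genes and WT 2 the lowest of 12, and no block of genes changes colour across the line.

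Phosphofructokinase commits the sugar to glycolysis and has a muscle (Pfkm), a liver (Pfkl) and a platelet (Pfkp) form. Pfkm was 7.06, 6.87, 6.92 and 6.85 in WT and 7.27, 7.10, 6.73 and 6.81 in PKR2 hearts, and the group means differed by 0.053 (SE 0.16). PKR2 1 and PKR2 2 were the 2 highest arrays for Pfkm, and PKR2 3 and PKR2 4 the 2 lowest. Pfkl was 3.05, 1.51, 1.59 and 2.34 in WT and 2.89, 1.61, 1.81 and 2.07 in PKR2 hearts, and the group means differed by -0.026 (SE 0.38), and Pfkp differed by -0.13 (SE 0.23). The first array of each group was high for Pfkl and for the brightest Pfkp probe, and Pfkl had the widest range of the 44 genes (1.54). The other tested Pfkp probes differed by 0.094 and 0.074. On neither of them was the first array the highest of its group, and PKR2 1 was the lowest PKR2 array on both.

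Pfkfb1 and Pfkfb2 encode bifunctional enzymes that set the level of fructose 2,6-bisphosphate, and Pfkfb2 is the form best known from heart. Pfkfb1 (probe at chrX:145984444-145984503, mm8) was 1.73, 2.28, 2.01 and 2.02 in WT and 1.50, 2.36, 1.55 and 1.22 in PKR2 hearts. The difference was -0.35 (SE 0.25, limma adjusted p = 1.0). Of the PKR2 arrays, 3 lay below the lowest WT array and PKR2 2 lay above the highest. Without PKR2 2 the Pfkfb1 difference was -0.58 (limma adjusted p = 0.979), and without PKR2 1 and PKR2 2 it was -0.62. It was -0.46 within slide 5 and -0.80 within slide 6, and, by scan range, -0.93 within the single range and -0.066 within the extended range. Pfkfb2 was 0.71, 0.80, 1.28 and 0.91 in WT and 0.85, 1.14, 1.32 and 1.07 in PKR2 hearts, and the group means differed by 0.17 (SE 0.18).

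Of the other genes of upper glycolysis, Gpi1 (glucose-6-phosphate isomerase) differed by -0.061 (SE 0.16), and Aldoa (aldolase A) was saturated on 3 of the 8 arrays, so its values there are lower limits. Tpi1, triosephosphate isomerase, was 6.06, 6.18, 6.20 and 6.21 in WT and 6.43, 6.55, 6.06 and 6.13 in PKR2 hearts. The difference was 0.13 (SE 0.16). PKR2 1 and PKR2 2 lay above all WT arrays, PKR2 3 was the lowest of the 8 arrays and PKR2 4 lay inside the WT range. Without PKR2 1 and PKR2 2 the Tpi1 difference was -0.070.

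Gapdh, which encodes glyceraldehyde-3-phosphate dehydrogenase and is often used as a control transcript, showed a like arrangement. It was 6.92, 6.95, 6.75 and 6.91 in WT and 7.20, 7.35, 6.80 and 6.85 in PKR2 hearts (probe at chr6:125128116-125128174, mm8), and the group means differed by 0.17 (SE 0.17, limma adjusted p = 1.0). PKR2 1 and PKR2 2 were the 2 highest of the 8 arrays. Slide 5 gave a difference of 0.046 and slide 6 of -0.059, and the arrays other than PKR2 1 and PKR2 2 gave -0.059. These are the 2 arrays with the low adipocyte markers; the part of those markers in the Gapdh, Tpi1, Pfkm and Pgam2 values was not tested.

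Phosphoglycerate mutase is encoded by Pgam2 in adult muscle and heart and by Pgam1 in most other tissues. Their promoters are shown because the pair contrasts a muscle with a widely expressed form and its ratio was highest on PKR2 1 and PKR2 2, a choice made after the values were seen. Each RefSeq sequence (GRCm38.p6) runs 5′ to 3′ from 250 bases before to 50 bases after the transcript start. Capitals mark matches, on either strand, to the E-box CANNTG, to the MEF2 consensus (the binding motif of myocyte enhancer factor 2) and to GGGCGG. The Pgam2 promoter lies at chr11:5803747-5804046 on the minus strand and the Pgam1 promoter at chr19:41911621-41911920 on the plus strand.
Pgam2: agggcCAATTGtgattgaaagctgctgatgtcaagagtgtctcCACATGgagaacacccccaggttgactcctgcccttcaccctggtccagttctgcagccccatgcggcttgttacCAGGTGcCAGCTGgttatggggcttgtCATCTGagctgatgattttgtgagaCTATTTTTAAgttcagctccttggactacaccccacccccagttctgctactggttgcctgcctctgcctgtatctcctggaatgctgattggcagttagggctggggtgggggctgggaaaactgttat
Pgam1: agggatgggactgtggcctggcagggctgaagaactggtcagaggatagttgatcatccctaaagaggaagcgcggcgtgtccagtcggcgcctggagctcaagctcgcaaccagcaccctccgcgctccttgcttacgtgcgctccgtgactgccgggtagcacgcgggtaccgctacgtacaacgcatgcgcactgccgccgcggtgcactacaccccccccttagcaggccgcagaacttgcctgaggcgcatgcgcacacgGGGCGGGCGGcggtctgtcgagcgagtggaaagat

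The Pgam2 window held 5 CANNTG matches and 1 MEF2 match and none to GGGCGG, and the Pgam1 window held 2 overlapping GGGCGG matches and none to CANNTG or MEF2. TATAAA was in neither. Of 32851 promoters of the same length, 72.3% held CANNTG, 3.19% the MEF2 consensus, 35.7% GGGCGG and 13.6% TATAAA on either strand. A match is a description of the letters in the window and not a measured site.

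Pgam2 was 6.75, 6.59, 6.47 and 6.66 in WT and 6.95, 6.95, 6.51 and 6.50 in PKR2 hearts, and the group means differed by 0.11 (SE 0.17). Pgam1 was 4.22, 3.98, 4.07 and 4.70 in WT and 3.82, 3.78, 4.43 and 4.24 in PKR2 hearts, and the group means differed by -0.17 (SE 0.22). PKR2 1 and PKR2 2 were the 2 highest arrays for Pgam2 and the 2 lowest for Pgam1. The log2 ratio of Pgam2 to Pgam1 was 2.53, 2.61, 2.40 and 1.96 in WT and 3.13, 3.16, 2.08 and 2.27 in PKR2 hearts. The ratio differed by 0.29 (exact permutation p = 0.429, adjusted over 11 pairs p = 0.763), by -0.32 within slide 5 and 0.31 within slide 6. With PKR2 1 and PKR2 2 left out, the ratio difference was -0.20.

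**Figure D3:**
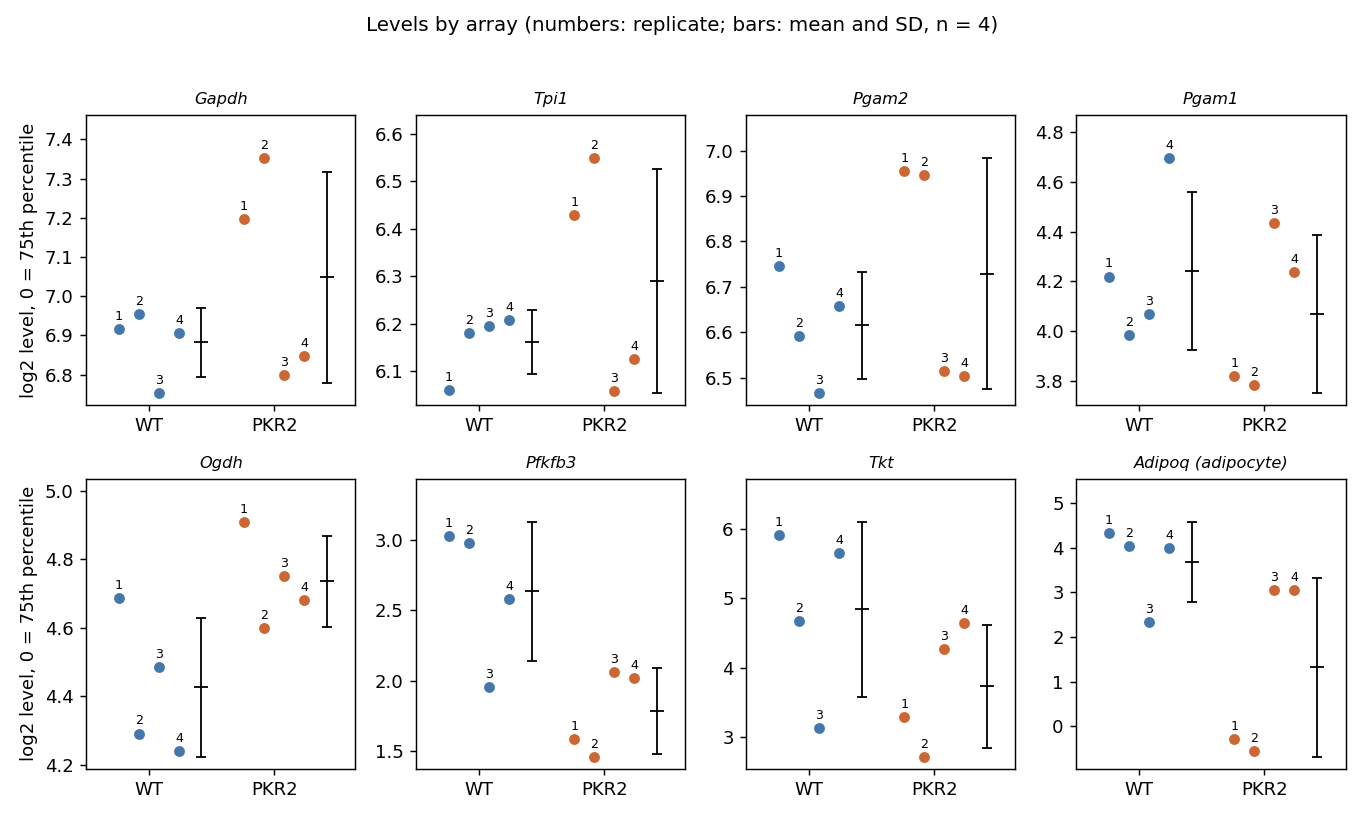
Log2 level (vertical axes, 0 is the array's 75th percentile) of 5 of the 44 genes, of the related genes Pfkfb3 and Tkt and of the adipocyte marker Adipoq, with 1 numbered point per array and bars for the mean and SD of 4 arrays. PKR2 1 and PKR2 2 are the highest arrays for Gapdh, Tpi1 and Pgam2 and the lowest for Pgam1, Pfkfb3 and Adipoq.

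Eno3, the muscle enolase, was 8.07, 8.48, 8.11 and 7.96 in WT and 8.22, 8.76, 7.72 and 7.98 in PKR2 hearts, and the group means differed by 0.014 (SE 0.23). Eno1, the widely expressed enolase, was -0.50, -1.43, -1.26 and -0.39 in WT and -0.48, -1.66, -0.99 and -0.82 in PKR2 hearts, and the group means differed by -0.093 (SE 0.31). Eno1 was the 1 gene of the 44 whose mean level lay below the 75th percentile of its arrays. In both groups the second array combined a high Eno3 with a low Eno1. Pgk1 (phosphoglycerate kinase) and Pkm (pyruvate kinase of muscle and most other tissues) differed by -0.089 (SE 0.21) and -0.065 (SE 0.21), and the array's name for Pkm does not tell its splice forms apart. Gapdh, Pgk1, Pgam1, Eno1 and Ldha have processed pseudogenes, and since probe sequences were not used here, their values are uncertain to the extent that such copies share them.

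Lactate dehydrogenase interconverts pyruvate and lactate as a tetramer of an A form, which predominates in skeletal muscle, and a B form, which predominates in heart. Ldha was 7.27, 7.88, 8.09 and 7.57 in WT and 6.81, 7.86, 7.56 and 7.52 in PKR2 hearts, and the group means differed by -0.27 (SE 0.26). Ldhb was 8.76, 8.71, 8.64 and 8.46 in WT and 8.77, 8.90, 8.59 and 8.53 in PKR2 hearts, and the group means differed by 0.052 (SE 0.15). PKR2 1 was the lowest of all arrays for this Ldha probe, and without it the Ldha difference was -0.056. The other Ldha probe, which lies upstream in the transcript, differed by 0.18 in the opposite direction, and the mean of both probes by -0.041. On that upstream probe PKR2 1 was the highest of all arrays (6.20). The log2 ratio of Ldhb to the brightest Ldha probe was 1.49, 0.84, 0.54 and 0.90 in WT and 1.96, 1.03, 1.03 and 1.01 in PKR2 hearts. The group means of this ratio differed by 0.32 (exact permutation p = 0.314, adjusted over 11 pairs p = 0.754).

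The pyruvate dehydrogenase complex links glycolysis to the citric acid cycle, and the kinases Pdk1 and Pdk2 switch it off by phosphorylation. Its subunit genes Pdha1, Pdhb, Dlat and Dld differed by 0.028, -0.0055, 0.016 and -0.089, with 95% half-widths of 0.34 to 0.49. Pdk1 was 4.22, 4.91, 5.30 and 4.61 in WT and 4.36, 5.12, 4.65 and 4.65 in PKR2 hearts, and the group means differed by -0.067 (SE 0.25). Pdk2 was 1.68, 0.95, 0.98 and 1.40 in WT and 1.96, 1.29, 1.17 and 1.19 in PKR2 hearts, and the group means differed by 0.15 (SE 0.24). The first array of each group was low for the brightest Pdk1 probe and high for Pdk2. The ratio of these probes varied more within WT (range 1.78) than between the group means (0.22). On the other tested Pdk1 probe WT 1 (0.99) and PKR2 1 (0.89) lay inside the range of the other arrays of their group.

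In the citric acid cycle, Ogdh had the smallest limma p of the 44 genes. Its protein is the decarboxylating subunit of the 2-oxoglutarate dehydrogenase complex, a regulated step of the cycle. Ogdh (probe at chr11:6255369-6255428, mm8) was 4.69, 4.29, 4.49 and 4.24 in WT and 4.91, 4.60, 4.75 and 4.68 in PKR2 hearts. The difference was 0.31 (SE 0.16, 1.24-fold, limma adjusted p = 1.0). The PKR2 arrays lay between 4.60 and 4.91, and 3 of the 4 WT arrays lay below them while WT 1 lay inside their range.

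The Ogdh difference was 0.27 within slide 5 and 0.44 within slide 6, 0.41 within the single scan range and 0.17 within the extended range. It stayed positive under all 24 alternatives, from 0.24 to 0.70, with a smallest limma adjusted p of 0.59 among them. Without PKR2 1 and PKR2 2 it was 0.29. The other Ogdh probe, 70 bases upstream in the genome, differed by 0.17. Dlst, the second subunit of the complex, differed by -0.043 (SE 0.18) with its brightest probe and by 0.31 and 0.18 with the other 2 tested probes. The probe with 0.18 was dim, at -2.73 to -1.26 over the arrays.

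Sdhd encodes a membrane anchor of succinate dehydrogenase, which is also complex II of the respiratory chain. Sdhd (probe at chr9:50348755-50348814, mm8) was 6.44, 6.80, 6.69 and 7.10 in WT and 6.26, 6.88, 6.36 and 6.35 in PKR2 hearts. The difference was -0.30 (SE 0.20, limma adjusted p = 1.0). Of the PKR2 arrays, 3 lay below the lowest WT array and PKR2 2 inside the WT range. It was -0.33 within slide 5 and -0.75 within slide 6, -0.60 within the single scan range and -0.066 within the extended range. Without PKR2 2 it was -0.44 (limma adjusted p = 0.979), and without WT 4 it was -0.18. The other 3 subunit genes, Sdha, Sdhb and Sdhc, differed by 0.014, 0.048 and -0.037.

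Succinyl-CoA synthetase pairs the shared subunit of Suclg1 with that of Sucla2, which makes ATP, or of Suclg2, which makes GTP. Sucla2 was 6.77, 6.67, 6.64 and 7.05 in WT and 6.65, 6.52, 6.69 and 6.78 in PKR2 hearts, and the group means differed by -0.12 (SE 0.15). Suclg2 was 2.84, 2.28, 2.40 and 2.86 in WT and 2.83, 2.44, 2.89 and 2.77 in PKR2 hearts, and the group means differed by 0.14 (SE 0.19). The log2 ratio of Suclg2 to Sucla2 was -3.93, -4.39, -4.24 and -4.19 in WT and -3.82, -4.08, -3.80 and -4.01 in PKR2 hearts.

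The ratio, taken with the brightest Sucla2 probe, was 0.26 higher in PKR2 hearts. WT 1 lay inside the PKR2 range and the other 3 WT arrays below it. This ratio had the smallest exact permutation p of the 11 pairs (0.0857, adjusted p = 0.754). For 4 against 4 arrays, 0.0286 is the least p that the test allows. The difference was 0.45 within slide 5 and 0.18 within slide 6, and ran from 0.20 to 0.35 over the 22 alternatives run for it. The other tested Sucla2 probe ran from 4.90 on PKR2 1 to 6.38 on PKR2 2 and differed by -0.22, and the ratio with that probe alone was not tested. Suclg1 differed by -0.044 (SE 0.21).

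Citrate synthase (Cs), isocitrate dehydrogenase (Idh2, Idh3a, Idh3b, Idh3g), fumarase (Fh1) and malate dehydrogenase (Mdh1 in the cytosol, Mdh2 in the mitochondrion) completed the cycle. Their differences ran from -0.12 for Fh1 to 0.19 for Idh2. Mdh1 was 8.05, 9.14, 8.66 and 7.77 in WT and 7.80, 9.17, 8.16 and 8.10 in PKR2 hearts, and the group means differed by -0.095 (SE 0.36). Mdh2 was 9.29, 9.85, 9.52 and 9.13 in WT and 9.30, 10.09, 9.30 and 9.33 in PKR2 hearts, and the group means differed by 0.059 (SE 0.23). The second array of each group was the highest of its group for Mdh2 and for the brightest Mdh1 probe. On the next brightest Mdh1 probe, which differed by 0.056, WT 4 and PKR2 1 were the highest of their groups. The remaining tested Mdh1 probe was dim and differed by 0.15.

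Isoform use was compared as the log2 ratio of the paired genes' probes on each array, since the level of 1 probe cannot be set against that of another. None of the 11 ratios passed the exact permutation test between groups after adjustment over the pairs, with a smallest adjusted p of 0.754. The ratio differences ran from -0.13 for Hk2 to Hk1 to 0.52 for Pfkfb2 to Pfkfb1 (exact permutation p = 0.171). Pfkfb2 to Pfkfb1 was -1.01, -1.48, -0.74 and -1.11 in WT and -0.65, -1.22, -0.23 and -0.16 in PKR2 hearts, so 3 PKR2 arrays lay above the highest WT array and PKR2 2 below the WT median. Its difference was 0.50 within slide 5 and 0.95 within slide 6, 1.14 within the single scan range and 0.18 within the extended range. The remaining ratio differences were -0.049 for Slc2a4 to Slc2a1, 0.078 for Pfkm to Pfkl, 0.19 for Pfkm to Pfkp, 0.11 for Eno3 to Eno1, 0.22 for Pdk2 to Pdk1 and 0.15 for Mdh2 to Mdh1.

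**Figure D4:**
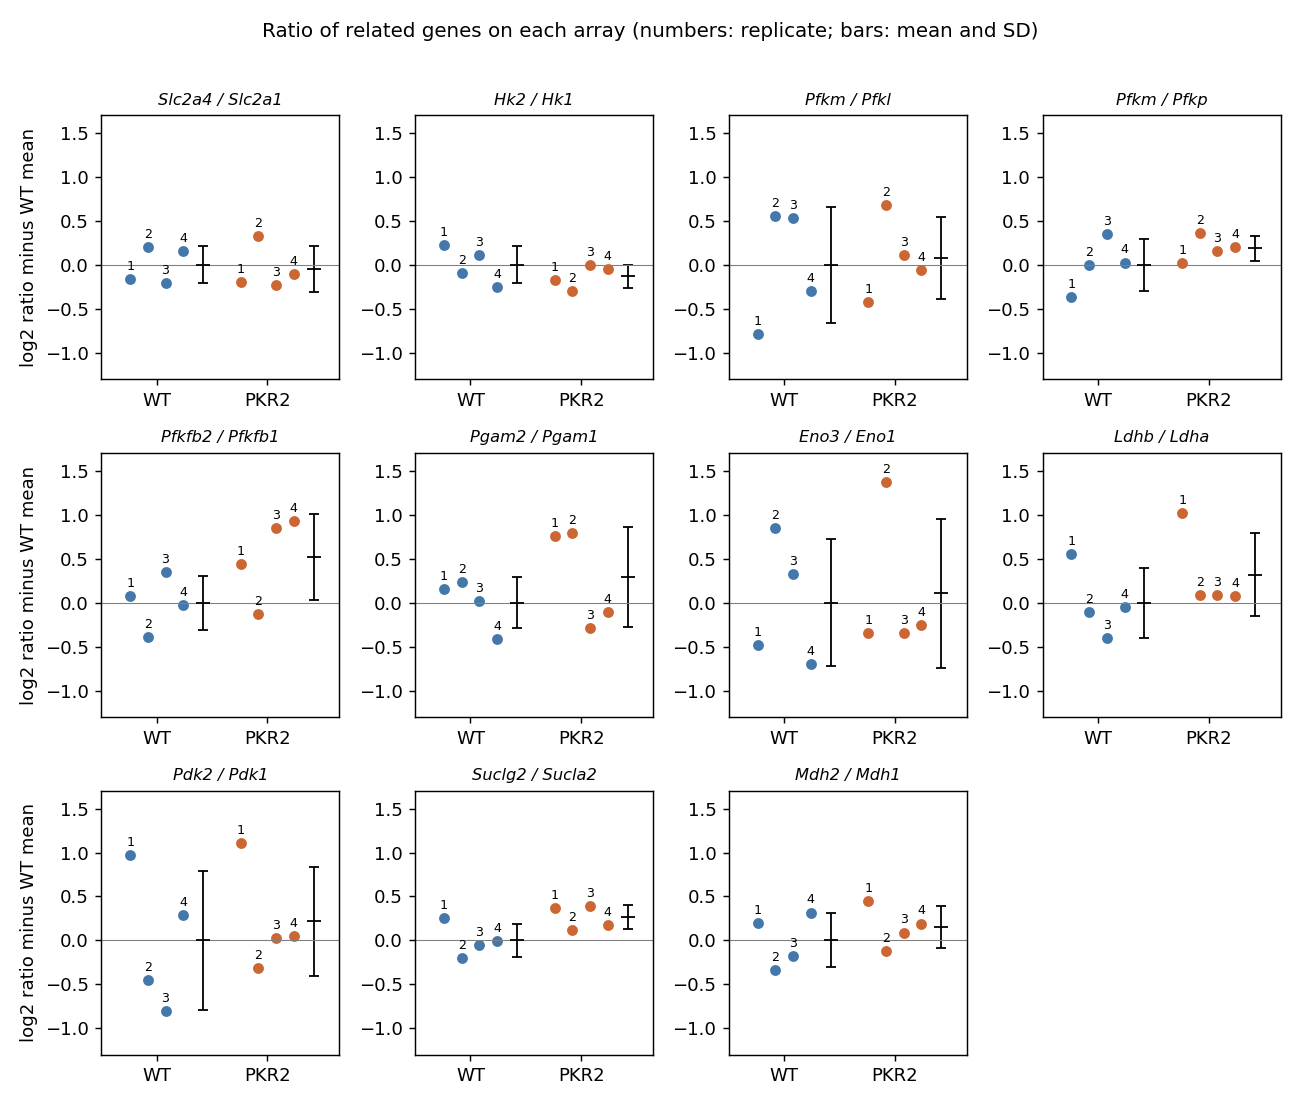
Log2 ratio of 11 pairs of related genes on each array, minus the WT mean of that ratio (vertical axes), with 1 numbered point per array and bars for the mean and SD of 4 arrays. WT and PKR2 arrays overlap in every panel, and Suclg2 to Sucla2 has the smallest exact permutation p (0.0857).

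Probes at different places of the same transcript did not vary alike among the arrays. For the 17 genes with probes at different, ordered places, the log2 signal of the downstream-most probe minus that of the upstream-most was centred on the gene's mean over the arrays. The median over the 17 genes was -0.27, 0.30, 0.15 and 0.12 in WT and -0.26, 0.27, -0.048 and -0.068 in PKR2 hearts. Over all 4848 genes that allowed it, the median was -0.14, 0.076, 0.11 and 0.16 in WT and -0.21, 0.045, -0.0099 and -0.052 in PKR2 hearts. WT 1 and PKR2 1 were the 2 lowest arrays on both counts.

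For Sucla2, whose probes lie 487 bases apart, the downstream minus upstream value was -1.75, -0.40, -0.54 and -1.19 in WT and -1.75, -0.14, -1.08 and -1.29 in PKR2 hearts. For Ldha it was 1.16, 2.46, 2.47 and 1.89 in WT and 0.60, 2.15, 1.71 and 1.71 in PKR2 hearts. Of the 19 genes with more than 1 tested probe, 9 had probes that differed between the groups in opposite directions (Aldoa, Cs, Dlat, Dld, Dlst, Ldha, Mdh1, Pfkp and Pkm). The chosen probe was the downstream-most in 13 of the 19. The part of probe position in the differences between groups was not tested.

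**Figure D5:**
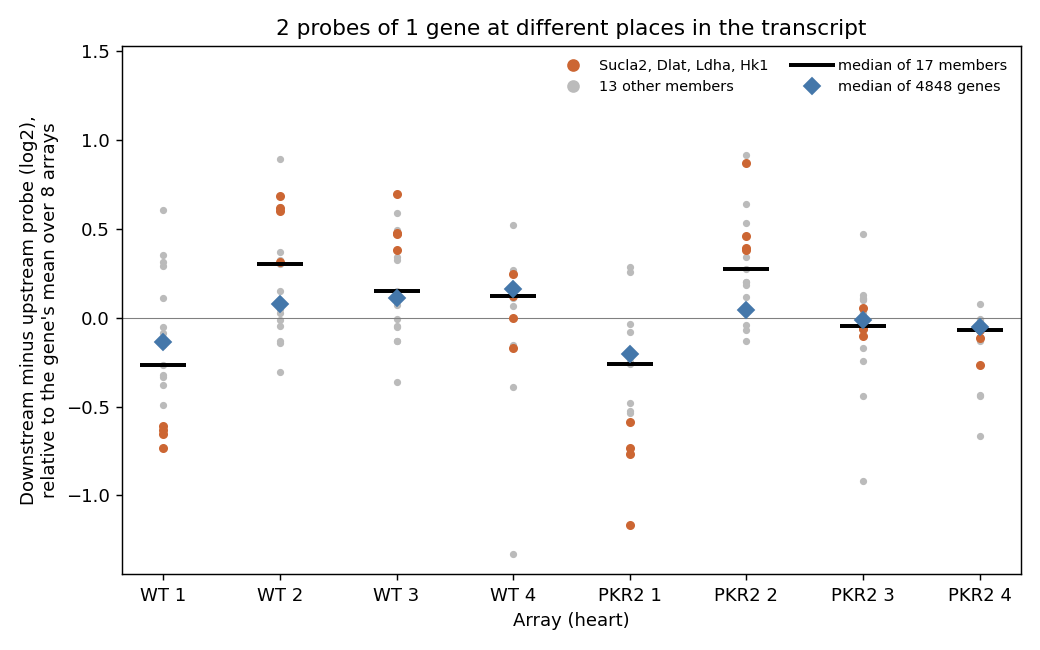
Log2 signal of the downstream-most minus the upstream-most probe of the same gene (vertical axis), centred on the gene's mean over the 8 arrays (horizontal axis). Points are the 17 genes (4 named ones in orange, chosen after their values were seen), black bars their median and blue diamonds the median of 4848 genes; WT 1 and PKR2 1 have the lowest medians.

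The lists of neighbouring pathway genes gave no call either. Of 16 other genes of glucose entry, glycolysis and gluconeogenesis that were tested, 0 were called by limma. An unadjusted limma p under 0.05 was reached by 1 of the 16, beside 2.40% of all features. This was Pfkfb3, the inducible member of the Pfkfb family, at 3.03, 2.98, 1.95 and 2.59 in WT and 1.58, 1.46, 2.06 and 2.02 in PKR2 hearts. The difference was -0.85 (SE 0.26, limma adjusted p = 1.0). WT 3 lay inside the PKR2 range and the other WT arrays above it. Blocked on slide (slides 5 and 6 alone then inform the fit), the Pfkfb3 difference was -0.23, and without PKR2 1 and PKR2 2 it was -0.59. It also depended on the choice of probe. When the mean of tested probes was used, the Pfkfb3 difference was -0.40 and did not reach the unadjusted cut-off. Slc2a8, the glucose transporter GLUT8, differed by -0.13 (SE 0.18), and by 0.13 with normexp background correction, 0.022 with normexp after a common array level and 0.042 with the mean of tested probes.

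Of 18 other genes around pyruvate and the citric acid cycle, 0 were called. For 1 of the 18, beside 2.40% of all features, the unadjusted limma p was under 0.05. Pcx, pyruvate carboxylase, which refills the cycle with oxaloacetate, was 4.21, 4.50, 3.95 and 4.14 in WT and 3.24, 3.69, 3.92 and 4.04 in PKR2 hearts, and the group means differed by -0.48 (SE 0.21). It was -0.22 without PKR2 1 and PKR2 2 and -0.068 with slide as a fixed block. Me3 (a mitochondrial malic enzyme) differed by 0.23 (SE 0.20) and Acly (ATP citrate lyase, which exports acetyl units for lipid synthesis) by -0.53 (SE 0.46). The Acly sign turned with slide as a fixed block (0.53) and without PKR2 1 and PKR2 2 (0.13), and its difference was 0.94 within slide 5 and 0.13 within slide 6. Pdk4, the kinase induced by fasting and fatty acids, is named here after its values were seen and differed by 0.028 (SE 0.24).

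Of 13 glycogen genes, 0 were called and 2 had an unadjusted limma p under 0.05, beside 2.40% of all features. Groups did not overlap for 1 of the 13, beside 1.57% of all features. Gys2, the liver form of glycogen synthase, was 1.03, 1.71, -0.15 and 1.20 in WT and -3.54, -2.74, -0.30 and -0.63 in PKR2 hearts, and the group means differed by -2.75 (SE 0.71, limma adjusted p = 1.0). Its highest PKR2 array (PKR2 3) lay 0.15 below its lowest WT array (WT 3), and both were on slide 5. Without PKR2 1 and PKR2 2 the difference was -1.41. Pygl, the liver form of glycogen phosphorylase, differed by -1.27 (SE 0.53), by -0.52 without PKR2 1 and PKR2 2 and by -0.025 with slide as a fixed block. Phka1, a muscle subunit of phosphorylase kinase, differed by 0.31 (SE 0.17), and by -0.43 with normexp background correction and -0.12 with normexp after a common array level.

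Of 7 pentose phosphate genes, 0 were called and 0 had an unadjusted limma p under 0.05, beside 0% and 2.40% of all features. On average 6 of the 7 were lower in PKR2 hearts, beside 8140 of all 15690 features. G6pdx (glucose-6-phosphate dehydrogenase, the entry enzyme) differed by -0.77 (SE 0.37), Taldo1 (transaldolase) by -0.35 (SE 0.17) and Tkt (transketolase) by -1.11 (SE 0.62). Tkt was 5.91, 4.68, 3.13 and 5.65 in WT and 3.28, 2.72, 4.27 and 4.64 in PKR2 hearts, so its WT arrays alone ran from 3.13 to 5.91. Without PKR2 1 and PKR2 2 the differences of G6pdx, Taldo1 and Tkt were -0.44, -0.28 and -0.38. Blocked on slide, they were -0.34, -0.21 and 0.067, and within slide 5 alone 0.60 for G6pdx and 1.14 for Tkt. With normexp background correction the Taldo1 difference was 0.0095. PKR2 1, PKR2 2 and WT 3 were the 3 lowest arrays for G6pdx, Tkt and Pygl and also for Adipoq, whose own difference was -2.35 with all arrays and -0.62 without PKR2 1 and PKR2 2. The part of the adipocyte markers in the values of Pfkfb3, Pcx, Gys2, Pygl, G6pdx and Tkt was not tested.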

How the data were processed

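Total RNA of 8 hearts was labelled with Cy3 and hybridised to 1-colour Agilent arrays, per the labels' protocols. The authors deposited 1 scanner file per array with spot intensity on a linear scale, background-corrected by Agilent Feature Extraction 9.5.1.1 per the file headers. Their value table is also on a linear scale with medians of 139 to 144 per array. Its values are intensity as deposited by the authors, and how they were scaled between arrays is not given in the sources used here, so the table served as an alternative.

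Control and outlier spots were left out, spots of a probe averaged, and log2 intensity expressed relative to the array's 75th percentile. A probe was tested if well above background on at least 3 of 4 arrays of a group, and the brightest tested probe stood for its gene. Differences were tested with limma 3.58.1 (lmFit and eBayes) in R 4.3.3, with Benjamini-Hochberg adjustment over 15690 features, after a check on simulated data. Ratios of related genes were tested with the two-sided exact permutation test over the arrays. The alternatives covered background correction, scaling, probe filter, probe choice, slide, scan range, extraction hour, variance model and arrays left out.

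The members and lists were chosen with earlier results of these data known. Genes of the neighbouring lists were named by smallest p, up to 3 per list, with exceptions said to be chosen after their values were seen; some of these genes are not reported here. Probe coordinates are those of the files (mm8), and no annotation of that build was used here, so exon and UTR positions are not given. Promoters are RefSeq sequences of GRCm38.p6. The labels pair no samples, and replicate numbers follow accession order. The number of arrays limits the precision.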

Additional observations from a re-analysis of the deposited data

Results flagged for a closer look

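In 8 of 110 groups of 4 arrays, 1 array stood apart by Dixon's criterion, which chance alone meets in about 1 group in 20. PKR2 2 was high for Pdhb (6.94, the other PKR2 arrays 6.60 to 6.61), Sdhd (6.88, the others 6.26 to 6.36) and Mdh2 (10.09, the others 9.30 to 9.33). It was also high for the log2 ratio of Eno3 to Eno1 (10.43, the others 8.70 to 8.80). PKR2 2 also had the highest erythroid marker score of the 8 arrays (1.41), and its part in these values was not tested. PKR2 1 was high for Pdk2 (1.96, the others 1.17 to 1.29) and for the log2 ratio of Ldhb to Ldha (1.96, the others 1.01 to 1.03). WT 1 was low for the brightest probe of Hk1 (5.06, the other WT arrays 5.63 to 5.66) and for Dld (5.12, the others 5.75 to 5.85). On the other tested Hk1 probes WT 1 was the highest WT array, and on the other Ldha probe PKR2 1 was the highest of the 8 arrays. WT 1 and PKR2 1 were the arrays with the lowest downstream against upstream probe signal, and its part in these values was not tested.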

How the results depend on the processing

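None of the 44 genes had a limma adjusted p under 0.05 under any alternative run. One alternative at a time, 1 feature outside the 44 was called in place of 0 with normexp after a common array level, with probes required on all 8 arrays, with slide as a random block, with slide 5 left out, with trended robust variance, at an adjusted p of 0.1 and without PKR2 3, so that leaving out 1 array gave 0 to 1. Genes of the 44 with an unadjusted limma p under 0.05, 0 of 44 as reported, numbered 1 with normexp background correction, 1 with normexp after a common array level, 1 in the authors' deposited values, 2 with slide as a fixed block, 1 with slide as a random block and 1 with PKR2 1 and PKR2 2 left out, and 0 to 2 with 1 array left out. The 44 held 42 with normexp background correction, 38 with normexp after a common array level, 11 with array median scaling, 9 with slide as a fixed block and 12 with PKR2 1 and PKR2 2 left out with a higher mean in PKR2 hearts, beside 20 as reported. The differences of Ogdh, Ldha, Pfkfb2 and Suclg2 and the ratios of Pfkfb2 to Pfkfb1, Ldhb to Ldha, Suclg2 to Sucla2 and Mdh2 to Mdh1 kept their sign under every alternative run for them.

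Of the medians, with normexp background correction the median of all 44 was 0.35, that of glucose entry was 0.38, that of upper glycolysis was 0.32, that of lower glycolysis and lactate was 0.35, that of pyruvate dehydrogenase was 0.31 and that of citric acid cycle was 0.37. With normexp after a common array level the median of all 44 was 0.16, that of upper glycolysis was 0.18, that of lower glycolysis and lactate was 0.15, that of pyruvate dehydrogenase was 0.10 and that of citric acid cycle was 0.16. In the authors' deposited values that of pyruvate dehydrogenase was -0.087. With slide as a fixed block the median of all 44 was -0.11, that of pyruvate dehydrogenase was -0.089 and that of citric acid cycle was -0.12. With slide 6 left out the median of all 44 was 0.036 and that of citric acid cycle was 0.041. With PKR2 1 and PKR2 2 left out that of upper glycolysis was -0.14.

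With normexp background correction, the sign turned for Sdhd (0.20), Pfkfb1 (0.062), Sucla2 (0.32), Pgam1 (0.35), Slc2a4 (0.29), Slc2a1 (0.16), Pfkl (0.21), Pfkp (0.11), Pdk1 (0.29), Mdh1 (0.36) and Slc2a4 to Slc2a1 (0.13). With normexp after a common array level, the sign turned for Sucla2 (0.11), Pgam1 (0.15), Slc2a4 (0.076), Pfkl (0.11), Pdk1 (0.085), Mdh1 (0.14) and Slc2a4 to Slc2a1 (0.077). With quantile normalization, the sign turned for Pfkl (0.011). With array median scaling, the sign turned for Hk2 (-0.046), Pfkm (-0.00049), Eno3 (-0.040) and Ldhb (-0.0016). In the authors' deposited values, the sign turned for Eno1 (0.0055). With the mean of tested probes, the sign turned for Pfkp (0.011) and Mdh1 (0.038). With slide as a fixed block, the sign turned for Gapdh (-0.0064), Tpi1 (-0.11), Hk2 (-0.0046), Hk1 (-0.048), Pfkm (-0.12), Pgam2 (-0.054), Eno3 (-0.19), Pdk2 (-0.0088), Mdh2 (-0.0095), Hk2 to Hk1 (0.044), Pfkm to Pfkl (-0.094), Pfkm to Pfkp (-0.0040), Pgam2 to Pgam1 (-0.0049) and Eno3 to Eno1 (-0.11). With slide as a random block, the sign turned for Pfkm (-0.0056) and Eno3 (-0.057). With slide 6 left out, the sign turned for Hk2 (-0.014), Pfkl (0.056), Eno1 (0.020), Slc2a4 to Slc2a1 (0.024) and Eno3 to Eno1 (-0.0068). With slide 5 left out, the sign turned for Slc2a1 (0.047), Pdk1 (0.13) and Mdh1 (0.037). With scan range as a fixed block, the sign turned for Hk2 (-0.0056). With extraction hour as a fixed block, the sign turned for Hk2 (-0.069), Pfkl (0.16), Eno1 (0.057), Mdh2 (-0.0058), Pfkm to Pfkl (-0.090) and Eno3 to Eno1 (-0.057). With PKR2 1 and PKR2 2 left out, the sign turned for Gapdh (-0.059), Tpi1 (-0.070), Pgam1 (0.092), Pfkm (-0.16), Pgam2 (-0.11), Eno3 (-0.31), Ldhb (-0.086), Pdk2 (-0.072), Mdh2 (-0.13), Pgam2 to Pgam1 (-0.20) and Eno3 to Eno1 (-0.30). With 1 array left out, values on both sides of 0 were found for the median of lower glycolysis and lactate (-0.13 to 0.059), Hk2 (-0.061 to 0.090), Hk1 (-0.0077 to 0.20), Pfkl (-0.29 to 0.28), Pfkp (-0.29 to 0.033), Eno3 (-0.18 to 0.17), Eno1 (-0.27 to 0.13), Pfkm to Pfkl (-0.19 to 0.26), Eno3 to Eno1 (-0.32 to 0.39), Mdh1 (-0.38 to 0.15), Slc2a4 to Slc2a1 (-0.18 to 0.018), Slc2a1 (-0.24 to 0.080), Pdk1 (-0.25 to 0.11), Pdk2 to Pdk1 (-0.081 to 0.54), Ldhb (-0.015 to 0.11), Mdh2 (-0.14 to 0.19), Pfkm (-0.044 to 0.14) and Pdk2 (-0.035 to 0.29). None of these signs belongs to a difference that passed a test, and the cause was not tested.

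The fixed offset of normexp weighs more on arrays of low signal (WT 2, WT 4 and PKR2 4) by its construction, and the common level was added for that reason. With the common level 38 of the 44 were still higher in PKR2 hearts, beside 42 without it, and the cause was not tested. The common level, slide 5 left out and the extraction hour were added after the data were seen. PKR2 1 and PKR2 2 were left out together because of their low adipocyte markers in these same data. Neither of them shared a slide with a WT array. A slide as a fixed block rests on slides 5 and 6 alone. The ratios were not run with slide as a random block or with trended variance. All arrays carry 1 extraction date, so it could not be a block. Replicate numbers follow accession order and were not used as a block, and the 2 pairs of arrays that shared a slide entered through the slide block. Array number and signal over background limit the precision.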
